A study of Mus musculus with 2 samples.

Results

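The dendritic cells of the parotid gland made up 143 of 8664 cells that passed the cell filter in 2 single-cell RNA libraries, 50 of 3378 control cells and 93 of 5286 from the irradiated (IR) library. Wild type (WT) C3H female mice were irradiated over the head and neck at 6 to 10 weeks of age, in 5 daily fractions of 6 Gy (30 Gy altogether), and their parotid glands were taken 10 months later, while control mice of the same strain, sex and genotype were not irradiated. Glands of 2 mice per treatment were pooled before dissociation into 1 library each, so that treatment, library and pool of mice cannot be told apart and no test between treatments was possible. Dendritic cells were chosen by gene counts in unique molecular identifiers (UMIs, tags that count RNA molecules) as cells with at least 2 UMIs over Fscn1, Ccl22, Ccl17, Siglech, Cd209a, Cd209d, Flt3 and Xcr1, and at least 1 UMI of Cd74. Cells with 3 or more UMIs over 5 macrophage genes (C1qa, C1qb, C1qc, Csf1r and Adgre1), with any UMI of Cd3d, Cd3e or Cd3g, or with 3 or more UMIs over Cd79a, Cd79b and Ms4a1 were left out. Each cell was then assigned to the gate group with the most UMIs, which were Fscn1, Ccl22 and Ccl17, then Siglech, then Cd209a and Cd209d, then Xcr1. These genes chose the cells, and their levels are given as a description only.

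Dendritic cells take up antigen in tissues and present peptides on MHC class II and class I molecules to T-cells. Conventional dendritic cells are divided into cDC1, which cross-present antigen to CD8+ T-cells, and cDC2, which act mainly on CD4+ T-cells, and both can switch to a mature state in which they express Ccr7, stop taking up antigen and migrate to lymph nodes. Plasmacytoid dendritic cells are a separate lineage that depends on the transcription factor Tcf4 and is known for sensing nucleic acids through Toll-like receptors and releasing type I interferon.

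Dendritic cells were a small share of both libraries. They made up 1.48% of control cells (95% Clopper-Pearson interval 1.10 to 1.95) and 1.76% of IR cells (1.42 to 2.15). The ratio of the IR to the control share was 1.19, and its exact conditional binomial interval, 0.834 to 1.71, includes 1. Among cells with at least 1 UMI of Ptprc, the pan-leukocyte gene that encodes CD45, the shares were 1.84% (31 of 1687) and 1.90% (62 of 3268). All intervals here are at 95% and cover counting error only, not the spread between mice. With the top 6% of doublet scores removed from each library the ratio was 1.95, as 23 of the 50 control and 10 of the 93 IR dendritic cells were among them.

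**Figure D1:**
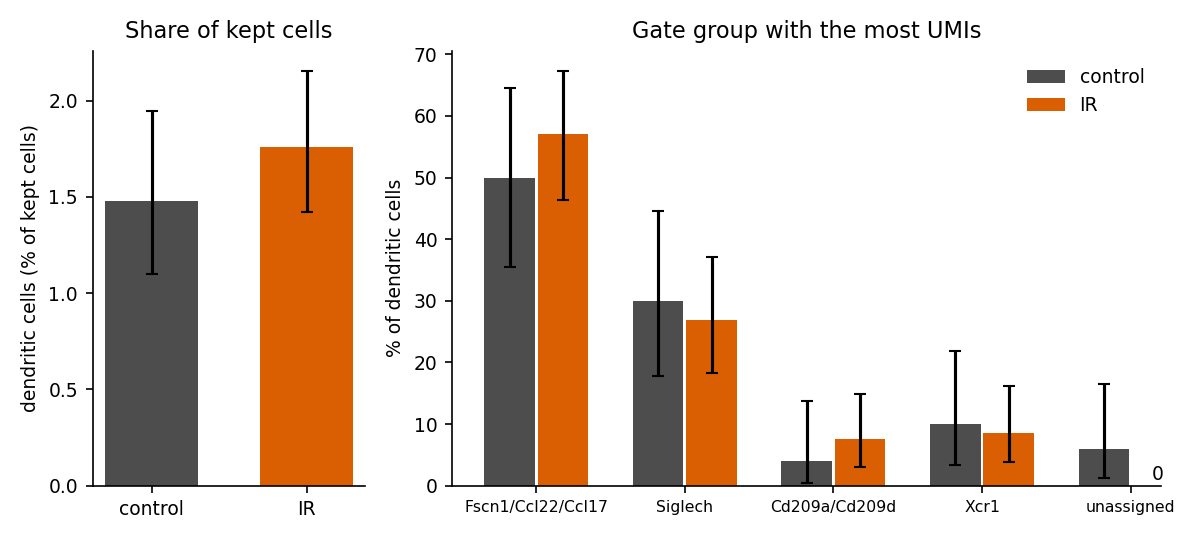
Left, dendritic cells as a percentage of kept cells in the control and IR library. Right, percentage of dendritic cells in each gate group. Bars start at 0 and error bars are 95% Clopper-Pearson intervals, with 50 control and 93 IR cells. The intervals of the 2 libraries overlap in all 4 gate groups, and the label 0 marks the group of unassigned cells, which had no IR cell.

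The mature gate genes marked the largest group in both libraries. In the control library, 25 of 50 cells (50%, interval 35.5 to 64.5) had most of their gate UMIs on Fscn1, Ccl22 and Ccl17, and in the IR library 53 of 93 (57.0%, 46.3 to 67.2). The Siglech group held 15 control cells (30%) and 25 IR cells (26.9%), the Xcr1 group 5 (10%) and 8 (8.60%), and the Cd209a and Cd209d group 2 (4%) and 7 (7.53%). No group's share of all kept cells had a ratio of IR to control whose interval left out 1, as the ratios were 1.35 (0.827 to 2.28) for the mature gate, 1.07 (0.540 to 2.17) for Siglech, 1.02 (0.295 to 3.97) for Xcr1 and 2.24 (0.426 to 22.1) for Cd209a and Cd209d. A further 3 control cells stayed unassigned. Flt3, the receptor for the growth factor that dendritic cells depend on, was the gate gene of 1 cell by itself. Ccl22 and Ccl17 lie close together on chromosome 8 of GRCm38 (94745590 to 94751699 and 94810453 to 94812036, plus strand), as do Cd209a and Cd209d (3743397 to 3748984 and 3871824 to 3878555, minus strand). Siglech lies on chromosome 7 (55768178 to 55778925, plus strand), and Xcr1 on chromosome 9 (123852315 to 123862029, minus strand).

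The gate had a soft lower edge. Cells just inside it, with exactly 2 UMIs over the gate genes, numbered 9 in the control library (median 5617 UMIs in all) and 10 in the IR library (median 1248). Cells just outside it, with 1 such UMI and otherwise passing, numbered 7 (median 2292 UMIs) and 19 (median 970). H2-Aa, which encodes an MHC class II chain, had a UMI in 8 of the 9 and 6 of the 10 cells inside, and in 6 of the 7 and 11 of the 19 cells outside. The gate cells were deeper than the libraries they came from, with a median of 5279 UMIs in the control and 4593 in the IR cells, against 2907.5 and 2461.5 UMIs for all kept cells. In the IR library, 14 of the 53 cells of the mature gate had under 1000 UMIs, and in the control library 4 of 25.

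Some gated cells also carried RNA of other cell types, and they weighed on sums over cells. Of the control cells, 7 met a limit for stromal, endothelial, secretory or red cell RNA, and 10 of the IR cells did. Among the control cells were a cell of 11981 UMIs with 1343 UMIs of the haemoglobin gene Hbb-bs and 664 of Cd74, 2 cells with 66 and 169 UMIs of the stromal gene Dcn, and a cell of 31038 UMIs with 12011 of the saliva protein gene Bpifa2. Among the IR cells was 1 of 26032 UMIs with 143 UMIs of Ifit1, 263 of Cxcl10 and 19 of Dcn. Genes of a list of 16 secretory genes took 10.7% of all UMIs of control dendritic cells and 3.30% of those of IR dendritic cells, while the median per cell was 2.53% and 2.58%. No barcode of a dendritic cell was shared between the libraries, whereas 12 barcodes were shared over all barcodes and 3 among kept cells.

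A further set of cells carried both major gates at once. At least 2 UMIs of Siglech and at least 2 of the Fscn1, Ccl22 and Ccl17 group were seen in 2 control and 8 IR cells, which had 7849 to 14313 UMIs. Their median was 10558 UMIs, against 3820 in the other cells of the mature gate and 4906 in the other cells of the Siglech gate. They held a median of 168 UMIs over Ccr7, Ccl5, H2-M2 and Il4i1 and of 33.5 UMIs over Bst2, Cox6a2, Ccr9, Ly6c2 and Spib, and all 10 had at least 5 UMIs of each set. Only 5 of the 73 other mature-gated cells and 3 of the 35 other Siglech-gated cells had that. Their median Scrublet doublet score was 0.0969 in the control library and 0.139 with IR, against 0.0827 and 0.0704 in the other dendritic cells and 0.0374 and 0.0463 over all kept cells. Scrublet called 1.47% of control barcodes and 0.07% of IR barcodes doublets. At so low an IR rate its calls were not used and no cell was removed on them, and the scores serve only as a ranking within a library, whose accuracy was not tested. Whether the 10 cells were doublets was not tested further.

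**Figure D2:**
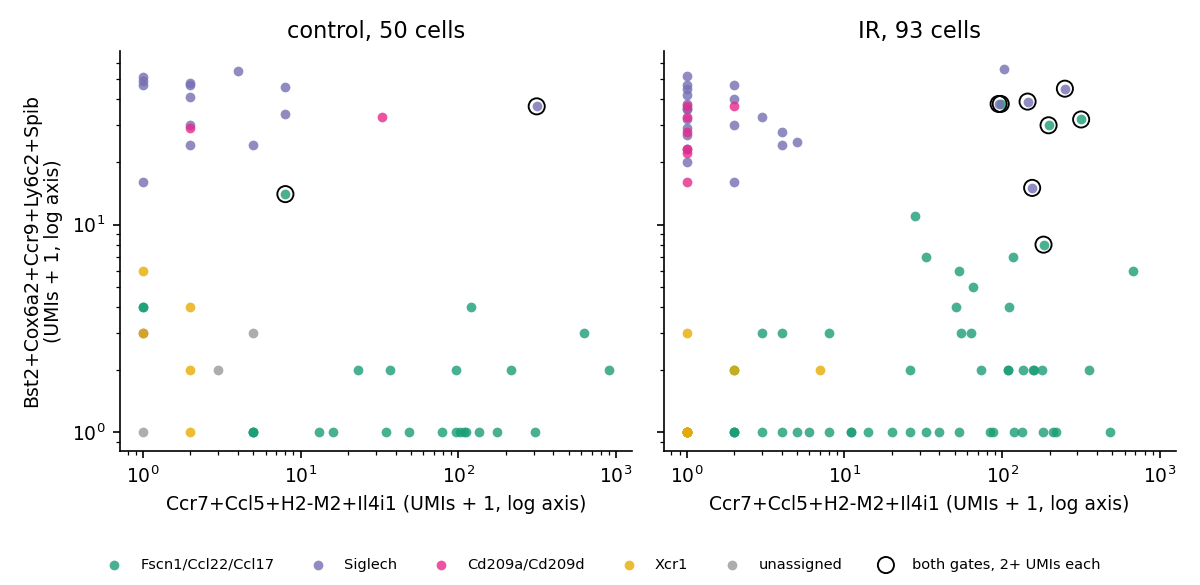
Each point is 1 dendritic cell, with its UMIs over Ccr7, Ccl5, H2-M2 and Il4i1 on the x axis and over Bst2, Cox6a2, Ccr9, Ly6c2 and Spib on the y axis, both plus 1 on log axes, in the control library (left, 50 cells) and the IR library (right, 93 cells). Colours give the gate group, none of whose genes are on the axes, and rings mark the 2 control and 8 IR cells with at least 2 UMIs of both major gates. Mature-gated cells lie along the bottom and Siglech-gated cells at the upper left, and most ringed cells lie at the upper right.

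The mature-gated cells carried a broad mature programme outside the gate genes. Of 24 markers of mature or migratory dendritic cells, 23 had a CPM (counts per 1e+06 UMIs of the class) at least 2 times that in the other dendritic cells, beside 25.3% of the 6554 genes measured in them. None of 25 plasmacytoid markers did, of which 19 had at least 5 UMIs in these cells. These cells are called mature-like below, a name for the class that not every cell in it bore out. Because all genes of a cell come with the cells the gate picked, this comparison is a description.

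Ccl5, a chemokine for T-cells, was the most counted of these markers. Mature-like cells had 0 to 860 UMIs of Ccl5 in the control library (median 21) and 0 to 640 in the IR library (median 26). The summed level was 21286 CPM (exact Poisson interval 20458 to 22140) in control and 16428 CPM (15916 to 16954) in IR cells. A Ccl5 UMI was present in 80% (control) and 84.9% (IR) of mature-like cells, against 5.32% and 6.98% of B cells, which lie at a median of 2539 and 2187 UMIs and serve here as the measure of free RNA. Ccl5 counts therefore varied widely among cells of the same gate.

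Ccr7, the receptor that guides mature cells to lymph nodes, reached 3090 CPM (2779 to 3426) in control and 2500 CPM (2303 to 2710) in IR mature-like cells, with medians of 9 and 7 UMIs per cell. It was no private mark of these cells, since 70.7% of control and 65.3% of IR B cells had a Ccr7 UMI too, at 588 and 544 CPM. H2-M2, a nonclassical MHC class I gene, reached 2747 CPM (2455 to 3065) and 2027 CPM (1849 to 2216), with a UMI in 84% and 69.8% of mature-like cells and in 0.259% and 0.264% of B cells. Il4i1, a secreted amino acid oxidase that restrains T-cells, reached 625 CPM (490 to 786) and 512 CPM (425 to 612), in 64% and 71.7% of the cells. At least 2 of these 4 genes were present in 21 of the 25 control cells and 43 of the 53 IR cells, and none of them in 2 and 2 cells. The 2 control cells with none held 66 and 169 UMIs of Dcn and 1 and 3 UMIs of Cd74. Their counts do not bear out the mature name, but they stayed in the sums of the class. Fscn1 was the only mature gate gene with UMIs in 9 control and 16 IR cells of the class. The gate gene Fscn1, which encodes the actin-bundling protein fascin, lay at 1857 CPM (1618 to 2122) and 1743 CPM (1579 to 1920), and the gate chemokine Ccl22 at 993 CPM (820 to 1191) and 998 CPM (875 to 1134).

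The genes that stood furthest above the other dendritic cells, by the CPM ratio among genes with UMIs in at least 20% of the cells, went beyond the marker list. Mmp25, which encodes a membrane-bound protease, had 19 UMIs in mature-like cells and none in the others, at least 7.31-fold higher when the others are set to 3 counts, and Rbpms had 16 and none, at least 6.16-fold higher. Clu, which encodes the chaperone clusterin, stood at a ratio of 26.4 (17.4 to 42.0), Mfge8, which encodes a bridge to dying cells, at 22.1 (12.7 to 42.1), and Pfkfb3, a regulator of glycolysis, at 25.4 (9.58 to 95.3). All these ratios pool both libraries. Clu had 72 control and 454 IR UMIs in mature-like cells and Mfge8 41 and 208, beside 116836 and 236357 UMIs of the class. Pygl, Tapbpl, Nudt17, A630081D01Rik and Ankrd33b completed the 10, with ratios from 20.01 to 33.5. Of 26 cDC2 markers, 8 were also at least 2 times higher in mature-like cells (Tnfsf9, Il1b, Ccl9, S100a4, Clec4n, Clec7a, Tmem176a and Tmem176b), and of 17 cDC1 markers 2 (Batf3 and Id2), among 19 and 8 of these markers with at least 5 UMIs.

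The Siglech-gated cells carried a plasmacytoid programme. Of 25 plasmacytoid markers outside the gate, 23 were at least 2 times higher than in the other dendritic cells, beside 27.7% of the 5349 genes measured, and none of the 24 mature markers were, of which 21 had at least 5 UMIs. Of 15 cDC2 markers with at least 5 UMIs, 7 were also at least 2 times higher (Clec10a, Mgl2, Sirpa, Irf4, Ccr2, Cd7 and Cfp), and of 8 such cDC1 markers 2 (Cadm1 and Rab7b). At least 3 of Bst2, Cox6a2, Ccr9, Ly6c2 and Spib were detected in 14 of the 15 control cells and 24 of the 25 IR cells. These cells are called plasmacytoid-like below.

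Bst2, which encodes the virus-tethering protein tetherin and marks mouse plasmacytoid cells, had 0 to 26 UMIs per plasmacytoid-like cell in the control library (median 17) and 5 to 26 in the IR library (median 15). Its level was 2623 CPM (2297 to 2981) and 2712 CPM (2444 to 3002), which overlap. Ccr9, a chemokine receptor for homing to the gut, lay at 1020 CPM (821 to 1252) and 1509 CPM (1311 to 1730), with medians of 7 and 6 UMIs per cell. Cox6a2, a subunit of the respiratory chain, lay at 706 CPM (543 to 903) and 722 CPM (587 to 879). In mature-like control cells, Ccr9 and Cox6a2 had no UMI in any of 25 cells, which allows a share of up to 12% of cells with a UMI. In IR mature-like cells they had UMIs in 5 and 4 of 53. Most of these UMIs lay in cells that carried both major gates. Such cells held 16, 10, 2 and 1 of the 30 Ccr9 UMIs and 7, 4 and 3 of the 15 Cox6a2 UMIs.

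Among transcription factors, Tcf4 and Spib were among the markers at least 2 times higher, and Irf8 was short of that. Tcf4 was at 885 CPM (701 to 1103) in control and 1159 CPM (986 to 1354) in IR plasmacytoid-like cells, against 137 and 233 CPM in mature-like cells, and Spib, an Ets factor, at 717 CPM (552 to 916) and 437 CPM (334 to 563). Irf8, which both plasmacytoid cells and cDC1 need, was at 1984 CPM (1702 to 2299) and 1728 CPM (1515 to 1963), against 1934 CPM (1545 to 2391) and 2293 CPM (1915 to 2725) in cDC1-like cells. Tlr7, the endosomal receptor for single-stranded RNA, had 9 and 5 UMIs in these cells and none in mature-like or cDC1-like cells, while Tlr9, the receptor for unmethylated DNA, had none in any plasmacytoid-like cell of either library. Unc93b1, which carries such receptors to the endosome, was at 549 and 467 CPM. Iglc3, an immunoglobulin light chain gene, had 21 and 60 UMIs, Ly6d 21 and 26, and the template-free DNA polymerase Dntt stood at 10.6 times (3.50 to 43.2) its level in the other dendritic cells. By ratio, Pik3ip1, with 15 UMIs against none, stood at least 11.8-fold higher than in the other dendritic cells, and Snx30, Ly6d, Arid3a, Klk1b27, Mfsd12, Cdkn2d, Fam214a, Pir and Iglc3 completed the 10, at ratios from 12.8 to 44.9.

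The Cd209a and Cd209d gate group carried mainly plasmacytoid markers. These 2 lectin genes are used as marks of cDC2, but they were also present in 13 of 15 control and 23 of 25 IR plasmacytoid-like cells. Of the 9 cells in which they outnumbered the other gates, 8 had Siglech UMIs, both control cells and 6 of the 7 IR cells. These are gate genes, and their counts are a description. Of 20 plasmacytoid markers with at least 5 UMIs in these 9 cells, 16 were at least 2 times higher than in the other dendritic cells, as were 5 of 8 such cDC2 markers (Clec10a, Ccr2, Cd7, Cfp and Fcer1g), beside 33.4% of the 1566 genes measured. The other 5 plasmacytoid and 18 cDC2 markers had too few UMIs to compare. Of the 5 cDC2 markers, Clec10a, Ccr2, Cd7 and Cfp were also among those higher in plasmacytoid-like cells, and Fcer1g was not. Bst2 was at 2466 CPM (1675 to 3500) in the control and 3511 CPM (2883 to 4236) in the IR cells, and Tcf4 at 1034 CPM (551 to 1768) and 1514 CPM (1112 to 2013). Itgam, which encodes the integrin chain CD11b of cDC2, had no UMI in any of the 143 dendritic cells. As the markers that were higher went against the cDC2 name of the gate, the cells are called by their gate, and whether they are plasmacytoid cells with more Cd209 than Siglech UMIs was not tested. Their highest ratio to the other dendritic cells was that of Ccr2, a receptor of monocyte chemokines, at 7.10 (4.10 to 11.9), with a UMI in all 9 cells. Stt3b, Cd164, Lyn, Ybx3, Atp1b3, Crem, Klf13 and Fcer1g were also among the highest, at ratios from 3.38 to 5.59.

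The 13 Xcr1-gated cells carried a cDC1 programme. Of 17 cDC1 markers outside the gate, 11 were at least 2 times higher than in the other dendritic cells, beside 21.7% of the 2577 genes measured, with none of the 24 mature markers and 1 of the 25 plasmacytoid markers (Cd300c), of which 5 and 6 had at least 5 UMIs. Of 9 cDC2 markers with at least 5 UMIs, 4 were also higher (Itgax, Il1b, Lyz2 and Il1r2). These cells are called cDC1-like below. Naaa, a lysosomal hydrolase, was at 751 CPM (517 to 1054) in control and 1351 CPM (1064 to 1691) in IR cells, with 1 to 13 and 5 to 19 UMIs per cell. Ppt1, a lysosomal thioesterase, was at 1047 CPM (766 to 1396) and 2027 CPM (1672 to 2435). Both genes had UMIs in all 13 cells, and Naaa had a UMI in 1 of 25 mature-like and 2 of 15 plasmacytoid-like control cells, and in 0 of 53 and 1 of 25 IR cells. Outside the Xcr1 group, unassigned control cells of 2767 and 31038 UMIs held 4 and 8 UMIs of Naaa and 7 and 12 of Ppt1. Wdfy4, which cDC1 need for cross-presentation, was at 296 CPM (157 to 506) and 676 CPM (478 to 927), and Clec9a, a receptor for dead cells, at 91.0 CPM (24.8 to 233) and 196 CPM (97.6 to 350). Cd300c2, Slamf8, Naaa, Plbd1, Ppt1, BC028528, Wdfy4, Havcr2, Tm6sf1 and H2-Ob were the 10 genes with the highest ratios, from 14.8 to 122. These ratios pool both libraries, and H2-Ob had 1 control and 17 IR UMIs in these cells.

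**Figure D3:**
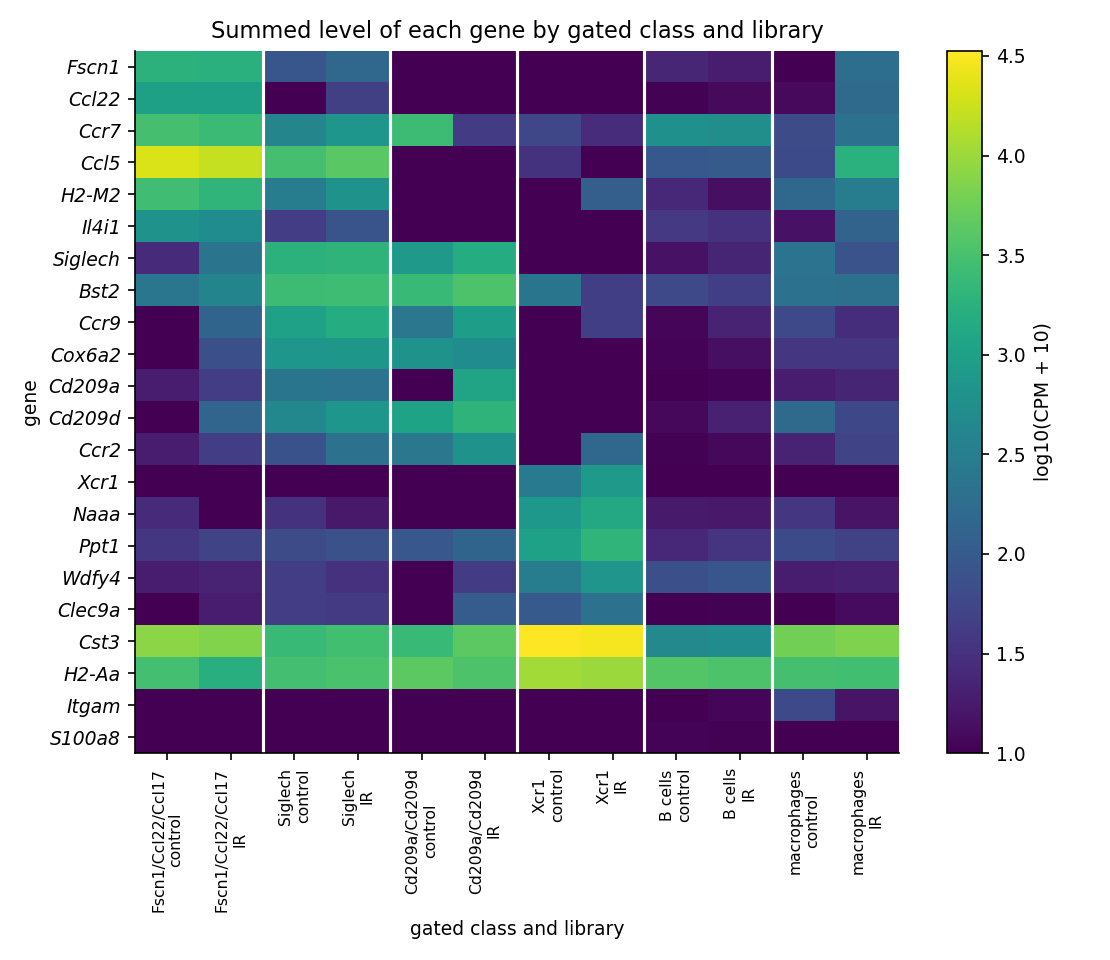
Colour gives the summed level of each gene as log10(CPM + 10) in each gated class and library, with B cells and macrophages as references at the right. Fscn1, Ccl22, Siglech, Cd209a, Cd209d and Xcr1 are gate genes, and the Cd209a and Cd209d columns share Siglech, Bst2, Ccr9 and Cox6a2 with the Siglech columns. Itgam and S100a8 are dark in every dendritic class, and Cst3 and H2-Aa are brightest in the Xcr1 columns.

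Antigen presentation genes divided the classes. Over 13 genes of MHC class II presentation, cDC1-like cells held 33559 CPM in the control library and 36799 CPM with IR, and plasmacytoid-like cells 11421 and 11156 CPM. H2-Aa lay at 10784 CPM (9835 to 11800) and 10008 CPM (9199 to 10870) in cDC1-like cells and at 2936 CPM (2592 to 3314) and 3288 CPM (2992 to 3606) in plasmacytoid-like cells. Its ratio of cDC1-like to plasmacytoid-like cells was 3.67 (3.15 to 4.29) in the control and 3.04 (2.68 to 3.45) in the IR library. Per cell, the 13 genes took a median of 3.34% and 3.71% of UMIs in cDC1-like cells, 1.44% and 1.23% in plasmacytoid-like cells and 0.527% and 0.429% in mature-like cells. The lowest cDC1-like cell of either library, at 2.05%, lay above the highest IR plasmacytoid-like cell, at 1.78%, and just below the highest control one, at 2.10%. Cst3, which encodes the protease inhibitor cystatin C, was at 33581 CPM (31890 to 35339) and 30079 CPM (28663 to 31547) in cDC1-like cells, 4.08 times (3.76 to 4.43) and 4.16 times (3.89 to 4.45) its level in mature-like cells.

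For MHC class I the order was another. Over 11 genes, mature-like cells held 16759 CPM in the control library and 17241 CPM with IR, plasmacytoid-like cells 9930 and 9479 CPM, and cDC1-like cells 6507 and 9297 CPM. B2m, the light chain of class I molecules, was at 4562 and 4607 CPM in mature-like cells, 1659 and 2085 CPM in plasmacytoid-like cells and 1388 and 1778 CPM in cDC1-like cells. Genes of the actin cytoskeleton, led by Tmsb4x, took a median of 6.04% and 7.18% of UMIs per mature-like cell 2.83% and 2.73% per plasmacytoid-like cell, and 6.30% and 5.70% per cDC1-like cell.

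**Figure D4:**
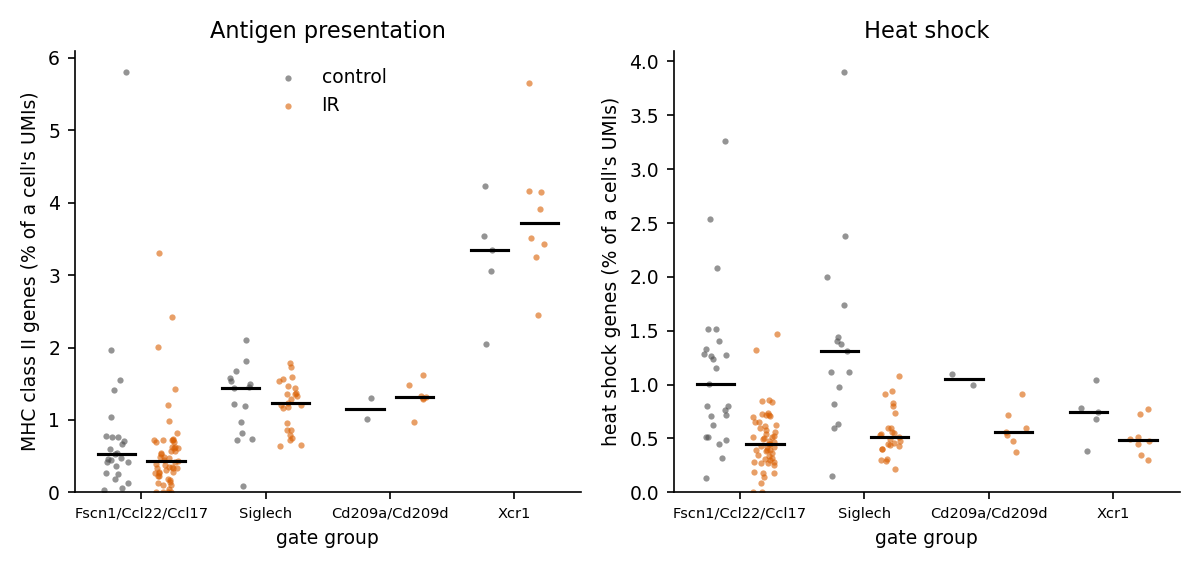
Each point is 1 dendritic cell, and the y axes give the percentage of its UMIs on 13 MHC class II genes (left) and 12 heat shock genes (right), by gate group, for control (grey) and IR (orange) cells. Black lines are medians. The Xcr1 group has the highest MHC class II median in both libraries, and for heat shock genes the IR medians, 0.452% to 0.564%, lie below the control medians, 0.749% to 1.31%, in all 4 groups.

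Costimulation and cytokine genes were mostly counted in mature-like cells. Over 14 costimulatory and checkpoint ligands the mature-like cells held 2302 and 2060 CPM, against 471 and 510 CPM in plasmacytoid-like and 1274 and 1387 CPM in cDC1-like cells. Cd83, a maturation mark, was the most counted, at 813 CPM (658 to 994) and 914 CPM (796 to 1044) in mature-like cells, but it was also found in 56.7% and 68.2% of B cells. Cd86, the ligand of CD28, was lower in mature-like cells, 137 and 76.2 CPM, than in cDC1-like cells, 250 and 373 CPM. Il12b, which encodes the shared chain of interleukins that drive T-cell responses, had 23 UMIs in 5 control and 72 UMIs in 13 IR mature-like cells, and none in B cells. Ido1 and Aldh1a2, enzymes tied to tolerance, had 1 UMI each over all 143 cells. Of 20 pattern sensors, 12 and 17 had any UMI in dendritic cells, and Unc93b1 took 77 and 123 of their 150 and 253 UMIs.

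Markers of other leukocytes were few, apart from Apoe. None of 7 neutrophil genes had a UMI in the 50 control cells. In the 93 IR cells Mmp9 had 3 UMIs and the other 6 none, so that S100a8 and S100a9 were at 0 in all 143 cells, which allows a share of up to 6% of control and 3.23% of IR cells with a UMI. Of 7 NK genes, Klrd1 held all 20 control and 40 of 41 IR UMIs, and most of them, 14 and 25, came from plasmacytoid-like cells. T-cell genes held 35 and 72 UMIs over 10 genes, led by Cd8b1 with 12 and 24 UMIs, and Trac was at 0 in both. The 15 macrophage and monocyte genes held 601 and 821 UMIs, of which Apoe made up 386 and 535, and Csf1r, Mrc1 and Fcgr1 were at 0. Csf1r and other macrophage, T-cell and B-cell genes were in part limits of the gate, so their low counts are a description. Cd207, the gene of the Langerhans cell lectin, had 27 control and 10 IR UMIs.

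Against macrophages and against B cells of the same libraries, dendritic cells stood apart in a short list of genes. Among genes with at least 50 UMIs in control dendritic cells, the highest ratios to macrophages were those of Ccl5, Mxd1, Serpinb9, Birc2, Il4i1, Tmem123, Itga4, Eno3, Arhgap31 and Cacnb3, from at least 28.2 to 177 in the control library. In the IR library the same 10 genes stood at 2.28 to 14.9. The reference differed between the libraries, as Ccl5 was at 51.9 CPM in control and 1781 CPM in IR macrophages, and Ccl22 and Fscn1 were also counted in IR macrophages. Against B cells the 10 were Cox6a2, Ccr9, Cxcl2, Rab7b, Alox5ap, Zmynd15, Ccl5, Cxcl1, H2-M2 and Cxcl10, at 78.0 to 272 in the control and 46.5 to 506 in the IR library. Cxcl10 had most of its UMIs in few cells with RNA of the stromal gene Dcn. Of its 61 control UMIs, 34 and 26 lay in 2 such cells, and 263 of its 266 IR UMIs in the cell of 26032 UMIs.

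The libraries were then compared over all dendritic cells, by the ratio of IR to control CPM for genes with at least 25 UMIs, with a ratio of at least 2 or at most 0.5 counted as past the fold. Of 3763 genes, 471 were higher in the IR cells (12.5%) and 101 lower (2.68%). The median gene stood at a ratio of 1.24 (0.31 on the log2 scale), and the ratios below are read beside it. Higher genes made up 82.3% of those past the fold. With the secretory, haemoglobin and mitochondrial genes and Gm42418 taken out of each total the median was 0.19 on the log2 scale and this share 73.1%, and with the mean of each cell's own CPM it was 68.5%. In mature-like cells, 215 of 1780 genes were higher (12.1%) and 86 lower (4.83%), and in plasmacytoid-like cells 133 of 1309 (10.2%) and 45 (3.44%). Without the deepest cell of each library, 311 genes were higher over all dendritic cells and 72 in plasmacytoid-like cells, and without the cells that carried RNA of another type 248 and 84.

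The highest and lowest ratios over all dendritic cells came mostly from single cells. Of the 10 highest (Enpp2, Glycam1, Ifit1, Postn, Ccdc71l, Ifit2, Ptgs2, Cxcl13, Plvap and Bst1), 7 had at least 50% of their IR UMIs in 1 cell, and of the 10 lowest (Clec3b, Hbb-bt, Pf4, Dcn, Igfbp5, Hbb-bs, Hba-a1, Hspb1, Mmp12 and Mup5), 9 had at least 50% of their control UMIs in 1 cell. Enpp2, for example, had 166 of its 167 IR UMIs in 1 cell, and without the deepest dendritic cell of each library its ratio was 0.619 instead of 109. The exceptions were Ccdc71l, Ptgs2 and Plvap among the highest and Hspb1 among the lowest. Ccdc71l had 1 control UMI and 29 IR UMIs in 19 cells, a ratio of 18.9 (3.13 to 772), and Ptgs2, the inducible cyclooxygenase, had 2 control UMIs in 1 cell and 34 IR UMIs in 13 cells, a ratio of 11.1 (2.84 to 95.2).

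Heat shock genes were lower in IR dendritic cells. Of 12 chaperone genes, 8 had a ratio of at most 0.5 and none of at least 2, and the median ratio was 0.409, beside 2.68% of all genes lower and a median of 1.24. In mature-like cells 9 of 12 were lower with a median of 0.342 (4.83% of all genes), and in plasmacytoid-like cells 7 of 10 with a median of 0.386 (3.44%). Their summed level was 10146 CPM in control and 5386 CPM in IR dendritic cells. The same list stood at 11679 and 8978 CPM in macrophages and at 6785 and 4515 CPM in B cells, where 0 and 4 of the 12 genes were lower by the fold, beside 6.74% and 1.37% of all genes there, with median ratios of 0.810 and 0.559. In T-cells 5 of 12 were lower, beside 1.2% of all genes, with a median of 0.557. Over the alternative scalings and sets of cells, at the same fold of 2, 8 or 9 of the 12 genes were lower in dendritic cells, with a median ratio of 0.329 to 0.414. At a fold of 3, 3 of 12 were lower (Hsp90aa1, Hspb1 and Hsph1), beside 0.93% of all genes.

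Hsp90aa1, the inducible cytosolic form of the chaperone Hsp90, was the most broadly counted of the lower genes. Mature-like cells held 0 to 42 UMIs in the control (median 5) and 0 to 21 in the IR library (median 1), and plasmacytoid-like cells 2 to 30 (median 14) and 0 to 8 (median 3). The ranges of the 2 libraries overlap, and the IR median lay below the control median in both classes. Its ratio was 0.264 (0.208 to 0.333) in mature-like and 0.229 (0.176 to 0.296) in plasmacytoid-like cells, against 0.450 (0.423 to 0.480) in B cells, 0.395 (0.381 to 0.409) in T-cells and 0.610 (0.542 to 0.686) in macrophages. Hsph1, a partner that reloads Hsp70, stood at 0.202 (0.0993 to 0.383) over all dendritic cells, with UMIs in 23 of 50 control and 11 of 93 IR cells. Hspe1 and Hspd1, the mitochondrial chaperonin pair, stood at 0.404 (0.327 to 0.499) and 0.426 (0.296 to 0.610), and Dnaja1, an Hsp40 co-chaperone, at 0.369 (0.282 to 0.481). The constitutive genes Hspa8 and Hsp90ab1 stood at 0.886 (0.785 to 0.999) and 0.720 (0.642 to 0.808), and Hspa5, the chaperone of the endoplasmic reticulum, at 0.682 (0.584 to 0.797), short of the fold.

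Hspb1, the small heat shock protein, had the lowest ratio of the list, 0.0886 (0.0526 to 0.142). Its 147 control UMIs lay in 12 of 50 cells, with up to 55 in 1 cell, and its 20 IR UMIs in 5 of 93 cells, with 14 in the deepest one. The ratio ranged from 0.0163 without the cells that carried RNA of another type to 0.255 with a mitochondrial limit of 10%. Hspa1a and Hspa1b, neighbouring and nearly identical genes of inducible Hsp70 between which reads can be split, stood at 0.350 (0.284 to 0.429) and 0.415 (0.312 to 0.549).

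Heat shock factors bind paired GAA and TTC blocks, and promoter stretches with such blocks are shown because most genes of the list were lower. In RefSeq promoter sequences (GRCm38.p6), the 250 bases before the start were searched for GAANNTTC and TTCNNGAA, each of which reads the same on both strands, and the 2 can overlap. Of 9 listed genes with an entry, 7 had at least 1 of the motifs (all but Dnajb1 and Hspa5), against 12.8% of 32851 promoters, 6.69% with the first and 7.17% with the second. The promoters of Hsp90aa1, Hsp90ab1 and Hspa8 were not analysed here. A match is a description and no evidence that a factor was bound. The motif is in capitals within 28 bases, 5′ to 3′ on the strand of the gene.
Hspb1, 97 bases before the start, chr5:135887812-135887839, plus strand: gatgggggcaGAACCTTCctggccccgc
Hspb1, 117 bases before the start, chr5:135887792-135887819, plus strand: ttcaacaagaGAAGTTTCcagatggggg
Hspa1a, 104 bases before the start, chr17:34972243-34972270, minus strand: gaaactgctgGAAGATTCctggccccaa
Hspa1b, 104 bases before the start, chr17:34959325-34959352, minus strand: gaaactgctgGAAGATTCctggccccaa
Dnaja1, 124 bases before the start, chr4:40722334-40722361, plus strand: aaagcctctaGAAAATTCtacgaggctc
Hspe1, 84 bases before the start, chr1:55088054-55088081, plus strand: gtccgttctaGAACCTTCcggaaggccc
Hsph1, 33 bases before the start, chr5:149636352-149636379, minus strand: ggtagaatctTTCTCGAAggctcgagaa
The windows of Hspa1a and Hspa1b have the same 28 bases, and the window of Hspe1 is shared, on the other strand, with Hspd1, which starts in the opposite direction.

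**Figure D5:**
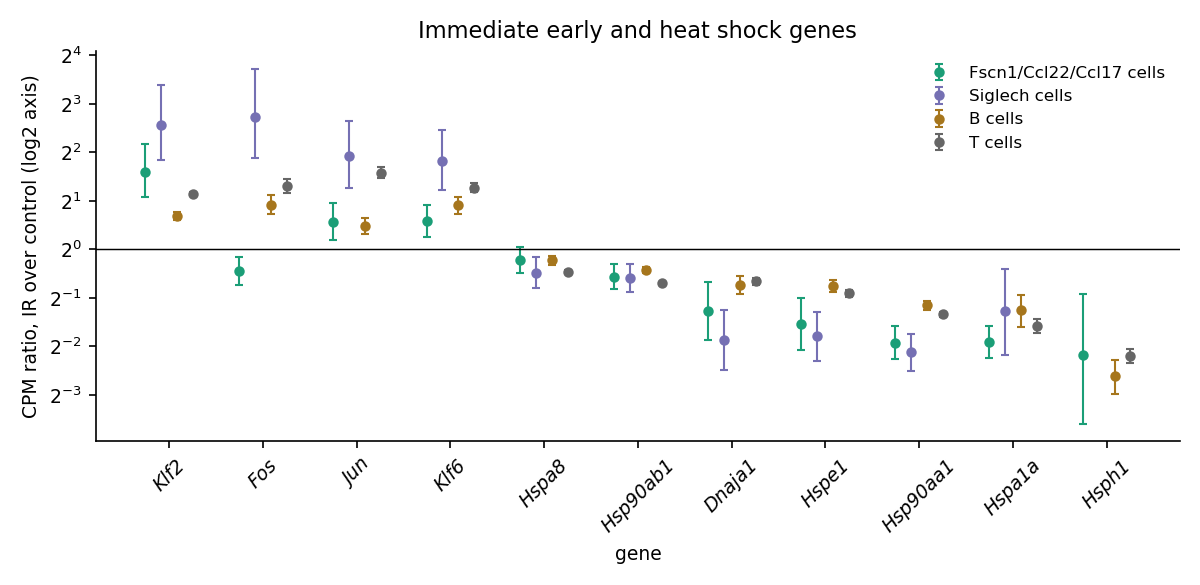
Ratio of IR to control CPM on a log2 axis for 4 immediate early genes (left) and 7 heat shock genes (right), in Fscn1/Ccl22/Ccl17 (mature-like) and Siglech (plasmacytoid-like) cells and in B cells and T-cells as references. Error bars are 95% exact conditional binomial intervals, and a class without a point had fewer than 25 UMIs of the gene. Heat shock points lie below 1 and Klf2 points above 1 in all 4 classes, while Fos lies below 1 in mature-like and above 1 in plasmacytoid-like cells.

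Immediate early genes stood at different ratios in the classes. Over all dendritic cells 2 of 17 were at least 2 times higher in the IR library (Jun and Klf2) and none lower, beside 12.5% and 2.68% of all genes. In plasmacytoid-like cells 7 of 14 were higher (Dusp1, Fos, Jun, Junb, Klf2, Klf4 and Klf6), beside 10.2% of all genes, with a median ratio of 2.32. Without the cells that carried both major gates, 6 of 13 were higher, beside 8.45% of all genes in that setting, with a median of 1.44. In mature-like cells 1 of 17 was higher (Klf2) and 1 lower (Egr1), beside 12.1% and 4.83% of all genes, with a median of 1.16. Without the cells of the highest doublet scores, 7 of 16 were higher in mature-like cells, beside 14.8% of all genes in that setting. Whether the classes differ in their response could not be tested with 1 library per treatment.

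Klf2, a factor of quiescence and of the exit of lymphocytes from tissue, was counted in more of the IR cells. It had 59 UMIs in 21 of 50 control cells and 498 UMIs in 69 of 93 IR cells, a ratio of 5.50 (4.19 to 7.33) that ranged from 4.13 to 5.50 over the alternatives. Plasmacytoid-like cells held 0 to 5 UMIs in the control (median 0) and 0 to 28 in the IR library (median 4), and mature-like cells 0 to 8 (median 0) and 0 to 35 (median 1). The ratio was 5.93 (3.59 to 10.4) in plasmacytoid-like and 3.04 (2.12 to 4.47) in mature-like cells, against 2.20 (2.14 to 2.27) in T-cells, 1.61 (1.52 to 1.70) in B cells and 1.46 (1.23 to 1.74) in macrophages. After every cell was thinned to 1000 UMIs, Klf2 was found in 20% of 15 control and 60% of 25 IR plasmacytoid-like cells (46.7% and 76% before), and in 48.7% and 57.7% of B cells.

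Fos, a subunit of the AP-1 factor, stood at 6.67 (3.68 to 13.3) in plasmacytoid-like and at 0.737 (0.604 to 0.901) in mature-like cells. Plasmacytoid-like cells held 0 to 3 UMIs in the control (median 1) and 0 to 19 in the IR library (median 2), so that the medians lay close together and the upper ends apart. In mature-like control cells, 48, 37 and 35 of the 169 Fos UMIs came from the cells with Dcn or haemoglobin RNA described above, and without the cells that carried RNA of another type the mature-like ratio was 2.07. Without the cells of the highest doublet scores it was 2.14. Jun, the partner of Fos, stood at 3.79 (2.40 to 6.25) and 1.48 (1.14 to 1.94) in plasmacytoid-like and mature-like cells, and Klf6 at 3.52 (2.32 to 5.52) and 1.4975 (1.19 to 1.89). In T-cells Fos, Jun and Klf6 stood at 2.46, 2.997 and 2.42, and in B cells at 1.89, 1.40 and 1.88. Egr1 in mature-like cells ranged from 0.126 without the deepest cell of each library to 3.57 without the cells of the highest doublet scores, around 0.356 over all of them.

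Interferon-stimulated genes lay on both sides of the fold over all dendritic cells, and a difference between the classes was not tested. Of 20 genes, 11 had 25 UMIs, with 2 higher (Ifit1 and Ifit2) and 3 lower (Ifi27l2a, Irf7 and Ly6a) in IR dendritic cells, beside 12.5% and 2.68% of all genes. In plasmacytoid-like cells none of 4 was higher and the same 3 were lower (3.44% of all genes), with a median ratio of 0.396. In mature-like cells 3 of 9 were higher (Ifit1, Ifit2 and Isg15) and 1 lower (Ifi27l2a), beside 12.1% and 4.83% of all genes. All 143 IR UMIs of Ifit1 and all 51 of Ifit2 lay in the cell of 26032 UMIs, as did 263 of 266 UMIs of the chemokine Cxcl10, and 67 of 77 IR UMIs of Isg15 came from 1 cell. Of the lower genes, Ifi27l2a was spread over cells. It had 220 UMIs in 33 of 50 control and 118 UMIs in 38 of 93 IR cells, a ratio of 0.349 (0.277 to 0.439), and 0.353 (0.319 to 0.390) in B cells and 0.452 (0.428 to 0.478) in T-cells. Irf7, the factor that drives type I interferon genes, had 38 UMIs in control and 24 in IR plasmacytoid-like cells, a ratio of 0.411 (0.236 to 0.703), with 19 of the control UMIs in 1 cell. Ly6a stood at 0.195 (0.0815 to 0.422) in the same cells, with 15 of its 30 control UMIs in 1 cell, and ranged from 0.0410 to 0.312 over the alternatives. The median ratio of the 11 genes was 1.57, and 0.547 over 8 genes without the deepest cell of each library.

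For MHC class II the summed levels differed in mature-like cells, and 1 control cell held much of the control sum. The summed level of the 13 genes was 11803 CPM in control and 6092 CPM in IR mature-like cells, and H2-Ab1, H2-Eb1 and Ifi30 were lower by the fold, at 0.389 (0.312 to 0.485), 0.383 (0.333 to 0.439) and 0.478 (0.392 to 0.582). The control cell with 1343 haemoglobin UMIs held 188 of 342 H2-Aa, 129 of 188 H2-Ab1 and 294 of 478 H2-Eb1 UMIs of the class. Without the deepest mature-like cell of each library no gene of the list was lower, and the median ratio was 1.21 over 7 genes, instead of 0.896 over 10 (6.47% of all genes were lower in that setting). The share of cells with H2-Aa did not turn on 1 cell, as 88% of control and 69.8% of IR mature-like cells had a UMI, with medians of 4 and 2 UMIs. After thinning to 1000 UMIs, the shares were 71.4% of 21 control and 46.2% of 39 IR cells, with 4 and 14 shallower cells left out, beside 95.9% and 94.9% of B cells. In plasmacytoid-like cells none of 8 genes was past the fold, with a median of 1.05.

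In mature-like cells the costimulatory receptor gene Cd40 was lower, with 52 UMIs in 13 of 25 control and 39 in 16 of 53 IR cells, a ratio of 0.371 (0.238 to 0.572) that ranged from 0.209 to 0.379 over the alternatives. Cd40 stood at 1.12 (0.858 to 1.46) in B cells. Rel, a subunit of NF-kB, was lower too, at 0.444 (0.358 to 0.550), with 185 and 166 UMIs and a range of 0.337 to 0.448. Fabp5, a fatty acid carrier, and Socs2, a brake on cytokine signals, both of the mature marker list, stood at 3.55 (2.10 to 6.42) and 2.50 (1.53 to 4.26). Fabp5 was found in 5 of 25 control and 26 of 53 IR mature-like cells and Socs2 in 9 and 28. Ccr7 and Ccl5 were short of the fold, at 0.809 (0.709 to 0.925) and 0.772 (0.734 to 0.812), and Ccl22 stood at 1.01 (0.802 to 1.27).

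In plasmacytoid-like cells Runx2, a lineage factor, stood at 2.44 (1.27 to 5.07) with UMIs in 8 of 15 and 14 of 25 cells, and the actin-linked genes Marcks and Marcksl1 at 3.44 (1.93 to 6.59) and 3.01 (1.38 to 7.48), found in 5 and 13, and in 4 and 8 cells. Without the cells that carried both major gates, Marcksl1 had 4 UMIs in each library, a ratio of 0.808, while Marcks stood at 2.33 to 17.8 over the alternatives. Ccr2 had 10 UMIs in 7 of 50 control and 63 in 27 of 93 IR dendritic cells, a ratio of 4.10 (2.09 to 8.97), of which 6 and 28 UMIs were in plasmacytoid-like and 3 and 19 in Cd209a and Cd209d-gated cells. The chemokine Ccl4 stood at 3.74 (2.14 to 6.96), with 15 UMIs in 4 control and 86 in 16 IR cells and up to 28 in 1 of them.

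The remaining lists are read beside 12.5% of genes higher and 2.68% lower over all dendritic cells. None of 10 MHC class I, 16 actin and 15 ribosomal protein genes was past the fold in either direction. Of 5 measured p53 targets, 1 was higher, Sesn2, a stress sensor, with 5 control UMIs in 5 cells and 24 IR UMIs in 22 cells at 3.13 (1.17 to 10.5), while Cdkn1a, the p53-driven brake on the cell cycle, stood at 0.856 (0.684 to 1.07). Among 18 transcription factors 3 were higher, which were Batf3 at 2.68 (1.27 to 6.31), Bcl11a at 4.23 (1.47 to 16.7) and Runx2 at 2.91 (1.64 to 5.49). Of 4 cell cycle genes with 25 UMIs, Stmn1 was higher, with 3 and 26 UMIs. Of 8 cytokine genes, Il15, Ltb and Tnf were higher, at 2.17 (1.01 to 5.20), 2.01 (0.996 to 4.41) and 2.61 (1.11 to 7.07), and of 8 costimulation genes Tnfrsf4 was higher, at 2.32 (1.08 to 5.52), and Cd40 lower. Within mature-like cells, 2 of 7 cytokine genes were higher (Ltb and Tnf) and 2 lower (Ebi3 and Il1b), beside 12.1% and 4.83% of all genes there. Of 11 chemokine and receptor genes 3 were higher (Ccl4, Ccr2 and Cxcl10), and of 11 MHC class II genes 1 (H2-Ob). For Cxcl10, 263 of the 266 IR UMIs lay in 1 cell. Its ratio turned to below 1 without the deepest cell of each library and by the mean of each cell's own CPM. Sesn2, Batf3, Bcl11a, Stmn1, Il15, Ltb, Tnf and Tnfrsf4 each rested on under 50 UMIs in both libraries together.

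Over all dendritic cells, secretory, stromal and red cell genes were mostly lower in the IR library, while no T-cell, B-cell, plasma cell or NK gene with 25 UMIs was past the fold. Of 11 secretory genes with 25 UMIs, 8 were lower in IR dendritic cells (Amy1, Bpifa2, Car6, Ggh, Pip, Prb1, Prpmp5 and Smr3a), with a median ratio of 0.300, and the stromal gene Dcn and the haemoglobin genes Hba-a1, Hbb-bs and Hbb-bt were lower. Dcn had UMIs in 2 control cells, and the haemoglobin cell held 1343 of 1445 control Hbb-bs UMIs. Without the cells that carried both major gates, Hbb-bs stood at 1.09 and Hbb-bt at 2.46, and Hbb-bt also turned in 2 other settings. Of 5 duct epithelium genes 2 were lower (Krt18 and Krt8), with a median of 0.543. In mature-like cells the secretory list ran the other way, with none of 7 genes lower, 1 higher (Ggh) and a median of 1.60, beside 12.1% of all genes higher and 4.83% lower. A single IR cell held 1961 of the 6856 Bpifa2 UMIs of that class. In plasmacytoid-like cells the secretory genes took 11.7% of control and 2.40% of IR UMIs, and in mature-like cells 2.99% and 4.29%. A single plasmacytoid-like control cell of 11883 UMIs, with 2 UMIs of Siglech, held 5813 of the 7414 control Bpifa2 UMIs of the class, and the median secretory share per plasmacytoid-like cell was 2.52% in control and 2.11% in IR cells. In mature-like cells Igkc and Xbp1 were higher by the fold, and in plasmacytoid-like cells Fxyd2 and Apoe were higher and Lyz2 lower. Without the cells that carried RNA of another type, Bpifa2 stood at 1.15 and Amy1 at 1.29, and 106 genes were lower over all dendritic cells (3.19%). The heat shock list had 9 of 12 genes lower in that setting. RNA of other types below the limits for leaving a cell out was not tested.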

How the data were processed

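Parotid glands were dissociated and sequenced as 10x single-cell libraries, 1 per treatment. The authors made the deposited UMI counts per gene and barcode, for which the submitters' processing notes name Cell Ranger 3.0.1, mm10 and Seurat 3. The counts were used as deposited. No annotation of cells was used. Cells were barcodes that had 200 or more genes and no more than 5% mitochondrial UMIs, 3378 of 5550 (control) and 5286 of 7793 (IR). The libraries held 22707876 and 23890757 UMIs over all barcodes. The members, gates and gene lists were chosen with earlier results of these data known.

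UMIs were summed per class and library and divided by the class total (CPM). With 1 library per treatment no test was run. Exact Poisson, Clopper-Pearson and conditional binomial intervals at 95% cover counting error only. A count of 0 was set to 3 counts for limits and bounds. The level of a gene was compared between classes or libraries and not with the levels of other genes.

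Genes named were the gate genes and markers, genes of the fixed lists, the 10 highest and 10 lowest IR ratios over all dendritic cells (at least 25 UMIs in all and at least 1 in each library, mitochondrial genes left out), the 10 highest ratios of each gate group to the other dendritic cells (at least 15 UMIs, UMIs in at least 20% of cells), and the 10 highest against macrophages and against B cells in the control library (at least 50 UMIs and the same call in the IR library). A gene that this rule names is not reported here. A gate group was called by a cell type only where its markers outside the gate bore the name. Doublets were scored with Scrublet in scanpy 1.11.5, and none were removed. The step that finds genes past the fold was run on counts simulated around summed control counts, without spread between cells. That run does not cover ratios that come from single cells. Python 3.11.15, numpy 2.4.6, scipy 1.17.1, pandas 2.3.3 and matplotlib 3.10.9 were used. Alternatives were other cell filters and gates, thinning each cell to 1000 UMIs, other scalings, thresholds and folds, and leaving out cells with high doublet scores, the deepest cells, cells with RNA of another type and cells with both major gates.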

Additional observations from a re-analysis of the deposited data

Results flagged for a closer look

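Barcodes outside the cell filter also passed the dendritic gate. In the control library 8 of 2172 such barcodes did (0.368%, beside 1.48% of the cells inside the filter), and in the IR library 19 of 2507 (0.758%, beside 1.76%). They are listed because the comparisons do not use them and their number is above the 0.138% and 0.120% that a count of 0 allows, which does not say that the rate stands out. All had over 5% mitochondrial UMIs, with medians of 7.18% and 8.56%, and their median depths were 2029.5 and 1848 UMIs. By gate group, the control barcodes were 2 mature-gated, 4 Siglech-gated, 1 Xcr1-gated and 1 Cd209a or Cd209d-gated, and the IR barcodes 6 mature-gated and 13 Siglech-gated.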

How the results depend on the processing

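Alternatives that leave out cells with RNA of another type or cells with both major gates, or average each cell's own CPM, were chosen after seeing the data. No paired analysis was possible because each group has 1 library. Of 256 gene ratios over all dendritic cells, under all alternatives together, 1619 values lay within the counting interval, 368 lay outside it and 26 turned. A turn to the other side of 1 was counted only for genes past the fold. Genes short of the fold that crossed 1 are among the 1619 and 368 values. Of the shares and counts of genes, 131 stayed within their limit and 38 moved, and a turn was not defined for them. These tallies leave out ratios and list medians within the mature-like and plasmacytoid-like classes, some of which turned (Fos and Egr1 in mature-like and Marcksl1 in plasmacytoid-like cells, for example). The cause of a shift was not tested unless the alternative itself sets it, as fewer cells or genes do. Depth limits most single genes, and shares below the values that a count of 0 allows were not detectable.

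Without the top 6% of doublet scores, the dendritic share of control cells was 0.860%, the ratio of shares 1.95, and the control shares of the Cd209 and Xcr1 groups both 0%. With each cell thinned to 1000 UMIs before the gate, the dendritic shares were 0.994% (control) and 1.21% (IR), and the IR share of the Cd209 group 19.0%. Among cells with UMIs of 1 gate group only, the mature group made up 77.4% of control and 84.2% of IR cells, the Siglech group 6.45% and 0%, and the Cd209 group 0% and 1.75%.

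Genes past the fold also depended on the thresholds. With at least 50 UMIs per gene, 138 were higher and 52 lower over all dendritic cells, 56 and 47 in mature-like cells, and 34 and 23 in plasmacytoid-like cells. At a fold of 1.5 these counts were 1133 and 235, 471 and 211, and 313 and 113, and at a fold of 3 they were 103 and 35, 68 and 26, and 46 and 23. Without the deepest cell of each library, 311 genes were higher over all dendritic cells and 72 in plasmacytoid-like cells, and without cells with RNA of another type 248 and 84. Without cells with both major gates, 87 genes were higher in plasmacytoid-like cells. By the mean of each cell's own CPM, 179 genes were lower over all dendritic cells and 147 in mature-like cells.

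The ratios past the fold that turned over all dendritic cells were as follows. Prpmp5 stood at 3.48 with gate groups weighted by their share over both libraries, 2.15 without the highest doublet scores, 3.10 without the deepest cells and 3.95 without cells with RNA of another type. Without the highest doublet scores, Nudt17 stood at 0.983 and Hbb-bt at 1.53. Without the deepest cells, Cxcl10 stood at 0.0304, Enpp2 at 0.619, Cxcl13 at 0.310, and Ifit1, Ifit2 and Postn at 0. Without cells with RNA of another type, Ifit1 and Ifit2 stood at 0, Glycam1 at 0.564, Hbb-bt at 1.504, Bpifa2 at 1.15, Amy1 at 1.29, Pip at 1.14, Prb1 at 1.05 and Ggh at 1.04. Without cells with both major gates, Hbb-bs stood at 1.09 and Hbb-bt at 2.46. By the mean of each cell's own CPM, Cxcl10 stood at 0.662, Pip at 1.06 and Prb1 at 1.16.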
